A study of Mus musculus with 9 samples.

Results

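Interferon-stimulated effector genes were examined in cultured mouse macrophages as a list of 44 named genes. Of the 44, 43 were matched to a transcript row among the 24445 genes of the count table, and all 43 passed the filter on low counts that left 11622 genes for testing. The expression of Rnf213 was not analysed here, and only its promoter window is counted below. The list names its members and sets no threshold on their counts. Many members encode proteins through which an interferon response acts on a virus or on viral RNA. Others restrain the response, such as Usp18, or have less defined roles. The list does not include the receptors and transcription factors that carry the signal, which are described separately below.

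The cells were bone marrow-derived macrophages (BMDMs), which are grown from the marrow of wild-type C57Bl/6 mice, in 3 groups of 3 libraries. In the Veh_N group a 1 h exposure to vehicle was followed by 24 h of vehicle. In the Veh_LPS group the same 1 h of vehicle preceded 24 h of lipopolysaccharide (LPS), the TLR4 ligand of gram-negative bacteria. In the D2HG_LPS group the first hour was with D2HG octyl ester, a form of D-2-hydroxyglutarate that enters cells, before 24 h of LPS. The dose, the vehicle, and the age and sex of the mice were not given in the sources used here, no group received the ester without LPS, and nothing says whether libraries of a group came from separate mice or cultures, so the spread between them may be technical. Each library held 9451258 to 13759935 counts over genes.

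Type I interferon binds the receptor formed by Ifnar1 and Ifnar2, and the kinases Jak1 and Tyk2 then phosphorylate Stat2. With Irf9, Stat2 acts in a complex that binds the interferon-stimulated response element, a promoter sequence built from repeats of GAAA, and switches on the genes described here. In macrophages LPS reaches this loop through TLR4, Ticam1 (TRIF), Tbk1 and Irf3, which induce Ifnb1, so that the cells respond to interferon of their own making.

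RefSeq promoter windows (build GRCm38.p6, 250 bases before to 50 after each annotated start) were matched by symbol for 37 of the 44 members, as 50 windows. Dhx58, Mx1, Mx2, Rtp4, Tor3a, Usp18 and Zbp1 had no window. The core GAAANNGAA, searched on both strands with overlapping matches allowed, lay in 18 of 50 member windows (36%), against 8.56% of all 32851 windows. It lay 2 or more times in 26% of member windows, against 0.624% of all windows. Both windows of Apol9a overlap and hold the same 2 matches, so that they count there as separate windows. Counted by gene, 17 of 37 members (45.9%) and 9.76% of all genes held it. The core of the gamma-activated site, TTCNNNGAA, lay in 8 of 50 member windows (16%) and in 8.3% of all windows. In 6 members the 200 bases before the start are printed below, 5′ to 3′ on the gene's strand, with matches to GAAANNGAA or its reverse complement in capitals. Ifit1 and Ifit3 were taken as the first by number of matches, and the other 4 were chosen after their values were seen: Ifit3b as the near copy of Ifit3, Isg15 and Rsad2 as strongly expressed members, and Ms4a4c as the member with the lowest value under the ester.
Ifit1 promoter: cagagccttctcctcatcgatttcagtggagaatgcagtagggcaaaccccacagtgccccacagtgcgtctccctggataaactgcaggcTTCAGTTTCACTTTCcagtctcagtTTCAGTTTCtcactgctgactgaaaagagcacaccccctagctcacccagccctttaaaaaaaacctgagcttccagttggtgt
Ifit3 promoter: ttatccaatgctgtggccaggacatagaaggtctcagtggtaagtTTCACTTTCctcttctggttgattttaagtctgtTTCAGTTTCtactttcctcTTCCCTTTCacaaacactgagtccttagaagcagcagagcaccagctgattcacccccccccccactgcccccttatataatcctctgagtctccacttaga
Ifit3b promoter: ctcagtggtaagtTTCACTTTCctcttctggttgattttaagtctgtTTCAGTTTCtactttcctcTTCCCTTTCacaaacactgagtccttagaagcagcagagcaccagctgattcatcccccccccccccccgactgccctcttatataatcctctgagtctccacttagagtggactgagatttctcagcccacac
Isg15 promoter: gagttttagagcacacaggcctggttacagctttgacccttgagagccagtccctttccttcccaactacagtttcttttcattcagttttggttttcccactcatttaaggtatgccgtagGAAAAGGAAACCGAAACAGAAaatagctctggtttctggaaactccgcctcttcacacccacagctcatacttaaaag
Rsad2 promoter: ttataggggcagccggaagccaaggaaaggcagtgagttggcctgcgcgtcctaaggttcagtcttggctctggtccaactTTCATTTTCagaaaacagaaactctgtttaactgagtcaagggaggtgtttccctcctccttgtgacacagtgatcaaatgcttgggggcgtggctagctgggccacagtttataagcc
Ms4a4c promoter: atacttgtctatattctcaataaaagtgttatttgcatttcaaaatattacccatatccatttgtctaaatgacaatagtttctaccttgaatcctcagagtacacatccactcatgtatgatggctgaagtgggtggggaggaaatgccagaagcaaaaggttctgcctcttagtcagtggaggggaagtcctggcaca
These stretches are chr19:34640689-34640888 (plus strand), chr19:34583329-34583528 (plus strand), chr19:34607757-34607956 (plus strand), chr4:156200819-156201018 (minus strand), chr12:26456453-26456652 (minus strand) and chr19:11407461-11407660 (plus strand). Ifit1, Ifit3, Ifit3b and Isg15 each held 3 matches. Those of Isg15 overlapped in a single run of capitals, with centres 74, 68 and 62 bases before the start. Ifit3 and Ifit3b held the same 3 matches in the same order, centred 151, 117 and 98 bases before the start of Ifit3 and 183, 149 and 130 bases before that of Ifit3b. Rsad2 held 1 match and Ms4a4c none, which says only that these letters are not in that window.

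**Figure D1:**
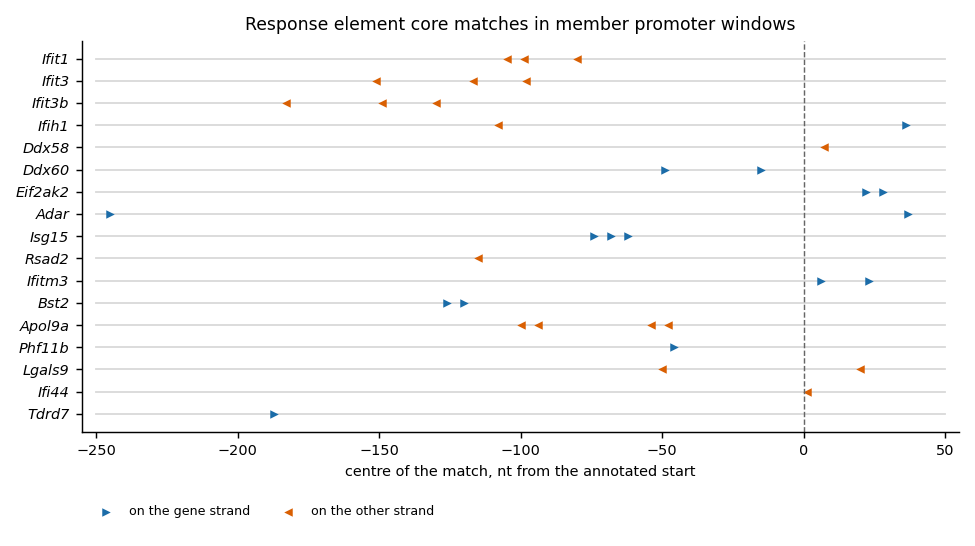
Positions of GAAANNGAA matches in the promoter windows of the 17 members that hold one, in bases from the annotated start (dashed line), with the strand given by the direction and colour of the marker. Of the 33 distinct matches, 15 (45.5%) lie between 150 and 51 bases before the start, against 31.8% of the 2892 distinct matches over all windows; the 2 matches of Apol9a are drawn from each of its overlapping windows and counted from the first listed.

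LPS raised every member that was measured. In Veh_LPS against Veh_N, 43 of 43 were higher in edgeR's quasi-likelihood test (Benjamini-Hochberg adjusted p below 0.05 over all genes tested), where 35.0% of all genes tested were higher and 38.9% lower. In no member did a Veh_N library reach a Veh_LPS library, against 34.5% of all genes with all 3 LPS libraries above. The median log2 fold change was 4.47 (a median fold of 22.1), or 4.30 with Apol9a set at its bound, against -0.07 over all genes tested. It ran from 1.81 for Ifitm3 to 8.68 for Cmpk2. The members together took 0.322% to 0.378% of the gene counts of a Veh_N library and 6.79% to 7.09% of a Veh_LPS library. Scaling by library totals alone moved the median of all genes to -0.74 and that of the members to 3.80, and upper-quartile scaling moved them to -0.39 and 4.14; the higher share of all calls was 47.4% with TMM, 21.8% with library totals and 33.2% with upper quartiles, and all 43 members were higher under each.

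**Figure D2:**
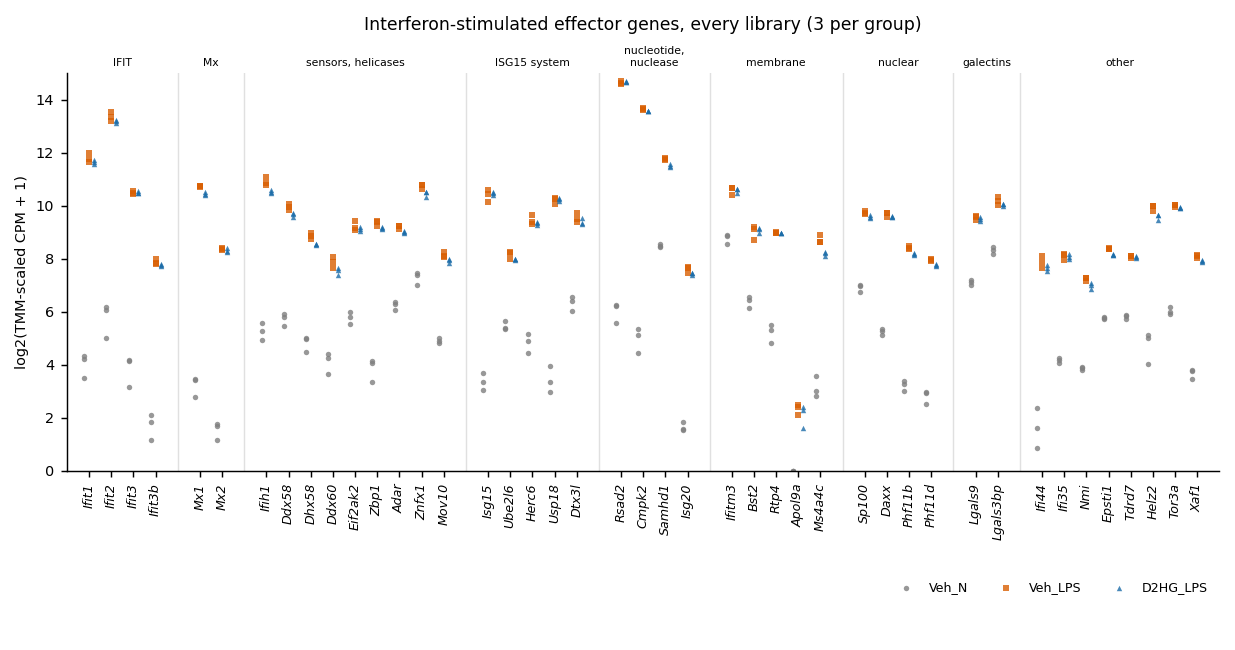
Level of each of the 43 members in every library, as log2 of CPM (counts scaled to a common library total, with TMM factors) plus 1, grouped by role, for Veh_N (grey circles), Veh_LPS (orange squares) and D2HG_LPS (blue triangles). Every grey point lies below the LPS points of the same gene, and the blue and orange points lie close together.

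Values below are CPM with each library's TMM scaling, given for replicates 1, 2 and 3 in that order. The 4 IFIT proteins, which bind foreign RNA and block its translation, rose by a median log2 fold change of 7.12. Ifit1 stood at 19.2, 17.6 and 10.4 CPM in Veh_N and at 3442, 3216 and 4026 CPM in Veh_LPS, a log2 fold change of 7.81 ± 0.21 (SE, n = 3 per group; edgeR adjusted p = 4.04e-12). Ifit3b stood at 3.24, 2.55 and 1.25 CPM in Veh_N and at 252, 225 and 222 CPM in Veh_LPS, a log2 fold change of 6.60 ± 0.18. In both genes replicate 3 of Veh_N was the lowest library, and the groups were far apart. Ifit2 (7.55 ± 0.28) and Ifit3 (6.68 ± 0.22) rose alike in log2 fold change. Ifit1 and Ifit3b overlap Ifit1bl1 on the genome, and Ifit3 and Ifit3b are near copies, so reads may have been divided between them: over the 3 Veh_LPS libraries Ifit3 had 44323 counts and Ifit3b 7207.

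The dynamin-like GTPases Mx1 and Mx2, which trap viral nucleoproteins in strains with intact genes, rose by log2 fold changes of 7.63 ± 0.17 and 7.36 ± 0.15. Mx1 stood at 9.58, 10.1 and 5.80 CPM in Veh_N and at 1720, 1674 and 1712 CPM in Veh_LPS. Mx2 stood at 2.21, 2.37 and 1.25 CPM in Veh_N and at 330, 333 and 322 CPM in Veh_LPS. The 3 LPS libraries lay close together in both genes. C57Bl/6 mice are known to carry a defective Mx1, and both rows are non-coding RefSeq entries, so these are RNA levels and say nothing of protein.

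The 9 nucleic acid sensors and RNA helicases rose by a median log2 fold change of 3.82 with a range of 2.97 to 5.68. Ifih1, which encodes the RNA sensor MDA5, stood at 46.0, 37.6 and 29.7 CPM in Veh_N and at 1865, 1765 and 2192 CPM in Veh_LPS, a log2 fold change of 5.68 ± 0.16 (edgeR adjusted p = 4.9e-12). Mov10, an RNA helicase that restricts retroelements, stood at 26.8, 31.4 and 28.4 CPM in Veh_N and at 300, 271 and 264 CPM in Veh_LPS, a log2 fold change of 3.27 ± 0.09. Zbp1, a sensor of Z-form nucleic acid, had a log2 fold change of 5.55 ± 0.17. The other six were Ddx58 (RIG-I, 4.22 ± 0.12), Dhx58 (LGP2, 4.06 ± 0.14), the helicase Ddx60 (3.82 ± 0.18), Znfx1 (3.45 ± 0.12), the kinase PKR encoded by Eif2ak2 (3.44 ± 0.13) and the double-stranded RNA editor Adar (2.97 ± 0.09). Levels without LPS differed among them: Znfx1 had 126 to 177 CPM and Adar 66.0 to 81.5 CPM in Veh_N, and Zbp1 9.24 to 16.6 CPM.

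Isg15, a ubiquitin-like protein that is joined to other proteins, stood at 9.16, 11.7 and 7.13 CPM in Veh_N and at 1384, 1537 and 1114 CPM in Veh_LPS, a log2 fold change of 7.15 ± 0.18 (edgeR adjusted p = 2.83e-12). Usp18, which removes Isg15 from proteins and restrains the interferon receptor, stood at 9.16, 14.6 and 6.74 CPM in Veh_N and at 1221, 1235 and 1081 CPM in Veh_LPS, a log2 fold change of 6.84 ± 0.22. The enzymes that attach Isg15 rose by smaller log2 fold changes, 4.65 ± 0.17 for the ligase Herc6 and 2.70 ± 0.10 for the conjugating enzyme Ube2l6. Dtx3l, a ubiquitin ligase, had a log2 fold change of 3.21 ± 0.14; it overlaps Parp9 on the genome.

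Of the 4 enzymes of nucleotides and nucleic acids, Rsad2 and Cmpk2 had the largest fitted log2 fold changes of the list. Rsad2 (viperin), which makes a chain-terminating nucleotide, stood at 73.1, 76.1 and 46.7 CPM in Veh_N and at 25038, 25057 and 26701 CPM in Veh_LPS, a log2 fold change of 8.61 ± 0.19 (edgeR adjusted p = 8.43e-13). Rsad2 alone took 2.13% to 2.22% of the gene counts of a Veh_LPS library. Cmpk2, a mitochondrial nucleotide kinase that lies beside Rsad2 in the genome, had a log2 fold change of 8.68 ± 0.21. Isg20, an exonuclease of RNA, stood at 1.93, 2.55 and 1.88 CPM in Veh_N and at 205, 199 and 175 CPM in Veh_LPS, a log2 fold change of 6.49 ± 0.13. Samhd1, which breaks down deoxynucleotides, had a log2 fold change of 3.28 ± 0.08 from a Veh_N level of 343 to 371 CPM.

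Among the 5 membrane and trafficking proteins the log2 fold changes spread from 1.81 for Ifitm3 to 8.60 ± 0.73 for Apol9a. The latter is a fitted value from 0 counts in Veh_N, and the next highest was 5.71 for Ms4a4c. Ms4a4c, of the MS4A family of membrane proteins, stood at 11, 6.99 and 5.95 CPM in Veh_N and at 395, 392 and 476 CPM in Veh_LPS, a log2 fold change of 5.71 ± 0.18. Rtp4, a receptor-transporting protein, stood at 38.9, 44.4 and 26.8 CPM in Veh_N and at 504, 519 and 502 CPM in Veh_LPS, a log2 fold change of 3.79 ± 0.15. In both genes every LPS library lay several fold above every vehicle library. Bst2 (tetherin, which holds budding virus at the cell surface) had a log2 fold change of 2.64 ± 0.14, and Ifitm3, which blocks viral fusion, had 1.81 ± 0.11 from 376 to 473 CPM in Veh_N. Apol9a, of the apolipoprotein L family, had 0 counts in all 3 Veh_N libraries and 4.34, 4.56 and 3.32 CPM in Veh_LPS. It was at least 19.7-fold higher with LPS, taking 3 counts as the floor in each Veh_N library, for counting error only. Its close copy Apol9b had 4 counts over Veh_N and 391 over Veh_LPS, and reads may have been divided between the pair.

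Of the nuclear proteins, Phf11b stood at 8.61, 9.30 and 7.05 CPM in Veh_N and at 339, 331 and 357 CPM in Veh_LPS, a log2 fold change of 5.35 ± 0.11 (edgeR adjusted p = 3.12e-13). Daxx, a histone chaperone of nuclear bodies, stood at 34.1, 37.9 and 39.4 CPM in Veh_N and at 855, 852 and 753 CPM in Veh_LPS, a log2 fold change of 4.47 ± 0.09. Phf11d (5.33 ± 0.12) and Sp100, a scaffold of nuclear bodies (2.84 ± 0.09), rose as well in log2 fold change. The Phf11 genes are close copies: over the Veh_LPS libraries Phf11a had 2825 counts, Phf11b 10645, Phf11c 542 and Phf11d 7619. Lgals9 (galectin-9, which binds cell-surface glycans) stood at 129, 145 and 138 CPM in Veh_N and at 788, 765 and 709 CPM in Veh_LPS, a log2 fold change of 2.46 ± 0.08. Lgals3bp, a secreted glycoprotein, stood at 317, 342 and 287 CPM in Veh_N and at 1289, 1144 and 1054 CPM in Veh_LPS, a log2 fold change of 1.88 ± 0.09. Both were among the best expressed members without LPS.

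In the remaining 8 genes, of less defined roles, log2 fold changes ran from 2.28 (Tdrd7) to 6.63 (Ifi44), with a median of 4.0. Tor3a, an ATPase of the endoplasmic reticulum, stood at 62.0, 71.3 and 58.8 CPM in Veh_N and at 1043, 1052 and 979 CPM in Veh_LPS, a log2 fold change of 4.0 ± 0.09. Xaf1, a pro-apoptotic partner of XIAP, stood at 12.8, 12.6 and 9.87 CPM in Veh_N and at 270, 277 and 256 CPM in Veh_LPS, a log2 fold change of 4.50 ± 0.10. Neither gene's groups overlapped. Helz2, a helicase-like coactivator, had 5.16 ± 0.23, Ifi35 4.0 ± 0.10, its partner Nmi 3.47 ± 0.09 and Epsti1 2.63 ± 0.07 as log2 fold changes.

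Per transcript length, the order of levels changed with LPS. In Veh_N the mean level was 645 CPM per kilobase for Ifitm3, 179 for Samhd1, 135 for Lgals3bp and 105 for Bst2. In Veh_LPS it was 6769 CPM per kilobase for Rsad2, 4032 for Cmpk2, 2765 for Ifit2, 2265 for Ifitm3, 1779 for Isg15 and 1745 for Samhd1. Isg15 and Samhd1 did not differ beyond the spread between libraries, which as a coefficient of variation was 15.9% for Isg15 and 2.07% for Samhd1. Members with a GAAANNGAA match had a median log2 fold change under LPS of 5.35 (n = 17) and those with a window but no match 4.0 (n = 19), with ranges of 1.81 to 8.61 and 1.88 to 8.68. The first median takes Apol9a at its fitted 8.60, from 0 counts in Veh_N. With Apol9a at its bound of 19.7-fold that median would be lower and nearer that of the members without a match. The difference between these medians was not tested.

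**Figure D3:**
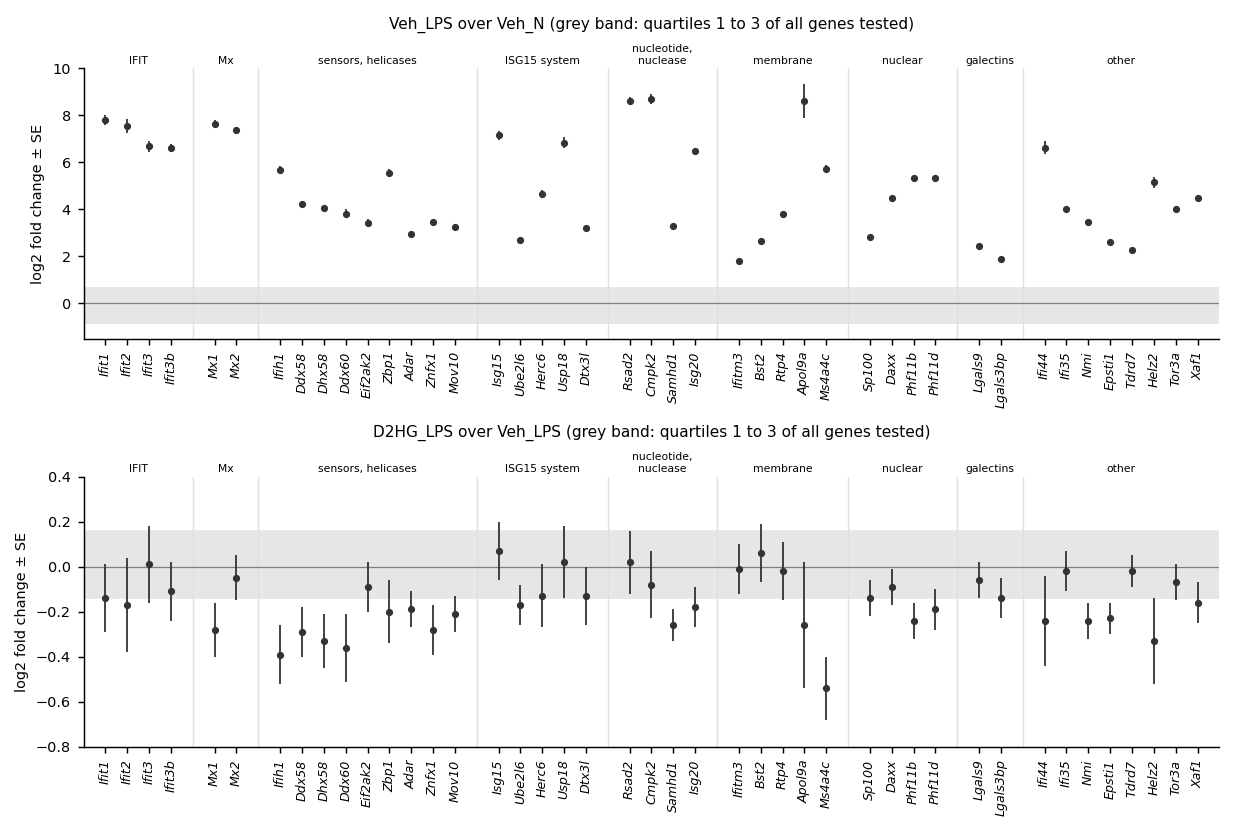
Log2 fold change ± SE of each member in Veh_LPS over Veh_N (upper panel) and in D2HG_LPS over Veh_LPS (lower panel, a much narrower axis), grouped by role, with the grey band giving the first to the third quartile of all genes tested. In the upper panel all 43 points lie above the band, from 1.81 to 8.68; in the lower panel 38 of 43 lie below 0, from -0.54 to 0.07.

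With the ester before LPS, the interferon-stimulated genes stayed highly expressed, and no single member passed the test. In D2HG_LPS against Veh_LPS 0 of 43 members were called by edgeR at adjusted p below 0.05, where 2.11% of all genes tested (245) were called, 134 higher and 111 lower. Most members nevertheless had slightly lower values: 38 of 43 log2 fold changes were negative, against 5611 of 11622 genes tested (48.3%), and the median was -0.16 against 0.01. At unadjusted p below 0.05, 13 members were lower and 0 higher, against 7.71% of all genes lower. In 21 of 43 members all 3 D2HG_LPS libraries lay below all 3 Veh_LPS libraries, against 12.4% of all genes tested; in 0 did they all lie above, against 11.9%. The members were measured in the same 6 libraries and are not replicates of one another, and no test of the list was made. They also move with the scaling: 13 members lay wholly below with library totals alone (7.63% of all genes), 19 with upper-quartile scaling (10.6%) and 25 with DESeq2 size factors (15.8%).

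**Figure D4:**
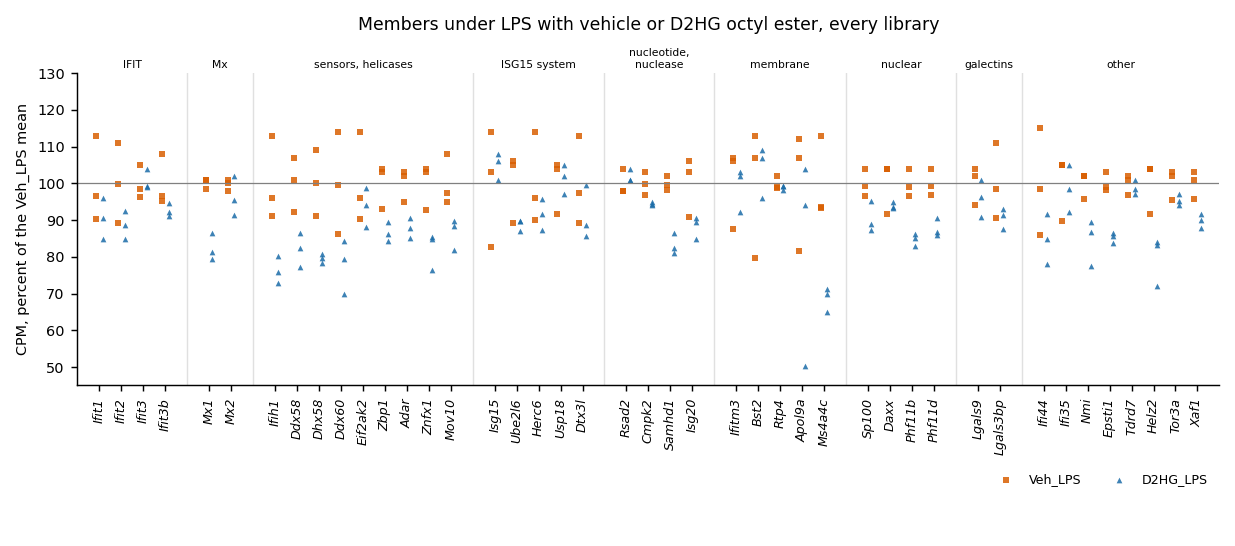
CPM of each member in the 3 Veh_LPS libraries (orange squares) and the 3 D2HG_LPS libraries (blue triangles), as a percentage of the mean of the Veh_LPS libraries, grouped by role. Blue points lie wholly below orange ones in 21 of 43 members, against 12.4% of all genes tested. The 21 include 8 of the 9 sensors and helicases, while the blue points of Isg15, Rsad2 and Usp18 overlap the orange ones.

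The sensors and helicases, the role with the most members tested (9), also had the most members wholly below. All 9 had negative log2 fold changes, with a median of -0.28. Wholly below were 8 of 9, against 12.4% of all genes tested, and 7 of 9 were lower at unadjusted p below 0.05, against 7.71%. In other roles 3 of 4 nucleotide and nuclease enzymes and 3 of 4 nuclear proteins also lay wholly below, and 0 of 5 in the Isg15 system. Ifih1 stood at 1865, 1765 and 2192 CPM in Veh_LPS and at 1474, 1557 and 1413 CPM in D2HG_LPS, a log2 fold change of -0.39 ± 0.13 (95% interval -0.67 to -0.11; edgeR adjusted p = 0.155). Dhx58 stood at 504, 465 and 423 CPM in Veh_LPS and at 375, 370 and 364 CPM in D2HG_LPS, a log2 fold change of -0.33 ± 0.12 (edgeR adjusted p = 0.199). Every ester library was below every vehicle library in both genes. The log2 fold changes of the other members of this role were -0.36 ± 0.15 for Ddx60, -0.29 ± 0.11 for Ddx58, -0.28 ± 0.11 for Znfx1, -0.21 ± 0.08 for Mov10, -0.20 ± 0.14 for Zbp1, -0.19 ± 0.08 for Adar and -0.09 ± 0.11 for Eif2ak2. Znfx1 overlaps the non-coding gene Zfas1 and Eif2ak2 the pseudogene Gm6548.

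Ms4a4c had the lowest value of the list. It stood at 395, 392 and 476 CPM in Veh_LPS and at 274, 294 and 300 CPM in D2HG_LPS, a log2 fold change of -0.54 ± 0.14 (95% interval -0.85 to -0.23; edgeR adjusted p = 0.0757). Samhd1 stood at 3465, 3421 and 3562 CPM in Veh_LPS and at 3017, 2870 and 2819 CPM in D2HG_LPS, a log2 fold change of -0.26 ± 0.07 (95% interval -0.41 to -0.11; edgeR adjusted p = 0.0757). Neither gene's groups overlapped, and both missed the threshold narrowly. Over the 18 alternative settings Ms4a4c was called lower in 5, with adjusted p from 0.00239 to 0.293, and Samhd1 in 6, with adjusted p from 5.29e-04 to 0.293. Apol9a stood at 4.34, 4.56 and 3.32 CPM in Veh_LPS and at 2.05, 3.84 and 4.24 CPM in D2HG_LPS, a log2 fold change of -0.26 ± 0.28. Isg20 stood at 205, 199 and 175 CPM in Veh_LPS and at 175, 164 and 173 CPM in D2HG_LPS, a log2 fold change of -0.18 ± 0.09. Apol9a overlapped between the groups, and Isg20 was lower in each ester library by a narrow margin.

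Epsti1, an interferon-induced gene first described in epithelial and stromal cell interaction, stood at 340, 328 and 326 CPM in Veh_LPS and at 287, 277 and 284 CPM in D2HG_LPS, a log2 fold change of -0.23 ± 0.07 (edgeR adjusted p = 0.104). Nmi stood at 152, 152 and 142 CPM in Veh_LPS and at 129, 115 and 133 CPM in D2HG_LPS, a log2 fold change of -0.24 ± 0.08 (edgeR adjusted p = 0.155). Phf11b stood at 339, 331 and 357 CPM in Veh_LPS and at 284, 295 and 291 CPM in D2HG_LPS, a log2 fold change of -0.24 ± 0.08 (edgeR adjusted p = 0.174). In these 3 genes the groups did not overlap, and none was called. Phf11d, its near copy, stood at 244, 238 and 254 CPM in Veh_LPS and at 211, 213 and 222 CPM in D2HG_LPS, a log2 fold change of -0.19 ± 0.09. Mx1 stood at 1720, 1674 and 1712 CPM in Veh_LPS and at 1383, 1472 and 1353 CPM in D2HG_LPS, a log2 fold change of -0.28 ± 0.12 (edgeR adjusted p = 0.287). The Mx2 values, 330, 333 and 322 CPM in Veh_LPS and 336, 314 and 300 CPM in D2HG_LPS, overlapped (log2 fold change -0.05 ± 0.10). Helz2 had a log2 fold change of -0.33 ± 0.19 and Xaf1 of -0.16 ± 0.09.

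Among the 10 members with the highest log2 fold changes with LPS, the values under the ester ran from -0.28 for Mx1 to 0.07 for Isg15. Rsad2 stood at 25038, 25057 and 26701 CPM in Veh_LPS and at 25833, 25761 and 26495 CPM in D2HG_LPS, a log2 fold change of 0.02 ± 0.14 (95% interval -0.27 to 0.32). Isg15 stood at 1384, 1537 and 1114 CPM in Veh_LPS and at 1430, 1352 and 1452 CPM in D2HG_LPS, a log2 fold change of 0.07 ± 0.13 (95% interval -0.22 to 0.36). The ester libraries lay within the range of the vehicle libraries in both, and the intervals allow a difference in either direction. Usp18 stood at 1221, 1235 and 1081 CPM in Veh_LPS and at 1238, 1144 and 1207 CPM in D2HG_LPS, and Cmpk2 had a log2 fold change of -0.08 ± 0.15, with its ester libraries all below. Among the IFIT genes Ifit1 stood at 3442, 3216 and 4026 CPM in Veh_LPS and at 3231, 3416 and 3020 CPM in D2HG_LPS, a log2 fold change of -0.14 ± 0.15. Ifit3b stood at 252, 225 and 222 CPM in Veh_LPS and at 212, 214 and 220 CPM in D2HG_LPS, a log2 fold change of -0.11 ± 0.13, and Ifit2 had -0.17 ± 0.21. Ifit3b was the only IFIT gene whose groups did not overlap.

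In the Isg15 system all 5 members overlapped between the groups. Ube2l6 stood at 297, 301 and 253 CPM in Veh_LPS and at 255, 255 and 247 CPM in D2HG_LPS, a log2 fold change of -0.17 ± 0.09. Dtx3l stood at 722, 661 and 839 CPM in Veh_LPS and at 657, 736 and 634 CPM in D2HG_LPS, a log2 fold change of -0.13 ± 0.13. Replicate 3 of Veh_LPS was the lowest library for Ube2l6 and the highest for Dtx3l. Lgals3bp stood at 1289, 1144 and 1054 CPM in Veh_LPS and at 1081, 1062 and 1018 CPM in D2HG_LPS, a log2 fold change of -0.14 ± 0.09. Lgals9 stood at 788, 765 and 709 CPM in Veh_LPS and at 760, 685 and 725 CPM in D2HG_LPS, a log2 fold change of -0.06 ± 0.08. The remaining members, Ifit3, Usp18, Herc6, Ifitm3, Bst2, Rtp4, Sp100, Daxx, Ifi44, Ifi35, Tdrd7 and Tor3a, had log2 fold changes between -0.24 and 0.06.

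Whether a few members were called lower depended on the test. DESeq2 called 5 of 43 lower (Samhd1, Epsti1, Ms4a4c, Phf11b and Nmi), against 3.41% of the genes for which it gave an adjusted p. edgeR fitted on the 2 groups alone called 7 (Ms4a4c, Ifih1, Mx1, Samhd1, Dhx58, Helz2 and Znfx1), against 2.32% of all genes. Limma-voom called 2 (Ms4a4c and Samhd1), against 1.12%, and edgeR with DESeq2 size factors called Samhd1 alone, against 1.35%. Leaving out replicate 3 of Veh_N, a group that is not part of this comparison but shares its estimate of the spread, gave 6 lower calls (1.83% of all genes) and leaving out replicate 1 of Veh_N gave 3 (2.31%). None of these settings called a member higher.

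Against Veh_N the ester-treated LPS cells had the whole list raised. All 43 were higher in edgeR's test, where 35.4% of all genes tested were, with a median log2 fold change of 4.34 (4.04 with Apol9a at its bound of at least 16.4-fold higher) and a range of 1.74 (Lgals3bp) to 8.64 (Rsad2). This comparison shares its D2HG_LPS and Veh_N libraries with the other comparisons, so its values are set beside theirs and not related to them. Rsad2 had a log2 fold change of 8.64 ± 0.19 against 8.61 ± 0.19 for Veh_LPS over Veh_N. The paired values were 5.29 ± 0.16 and 5.68 ± 0.16 for Ifih1, and 5.17 ± 0.18 and 5.71 ± 0.18 for Ms4a4c. The list took 6.75% to 6.89% of the gene counts of a D2HG_LPS library, just under or within the 6.79% to 7.09% of Veh_LPS.

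Of 39 other genes of the pathway, 34 were tested, and LPS raised 28 and lowered 5 of them, where 35.0% of all genes tested were called higher and 38.9% lower. Among ligands only Ifnb1 was measurable: 0 counts in every Veh_N library, 42, 43 and 37 counts in Veh_LPS and 35, 47 and 43 counts in D2HG_LPS. That made it at least 19.3-fold higher with LPS, and the ester log2 fold change was -0.02 ± 0.22 (95% interval -0.51 to 0.46). Ifna1, Ifna2 and Ifna4 had 0 counts in all 9 libraries, which for one library allows up to 3 counts, Ifna5 at most 1 count and Ifng at most 6. At 24 h the 6 listed interferon genes had at most 47 counts in a library, while the members together took 6.79% to 7.09% of the gene counts of a Veh_LPS library. Other interferon genes were not examined.

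Of 7 receptors and kinases 6 rose with LPS. Jak2, the kinase of the interferon gamma receptor, had a log2 fold change of 4.46 ± 0.13, while Ifngr1, a chain of that receptor, fell by 2.18 ± 0.08 on the log2 scale. Tyk2, the kinase bound to Ifnar1, stood at 76.6, 83.0 and 82.0 CPM in Veh_N, 283, 265 and 256 CPM in Veh_LPS and 220, 215 and 214 CPM in D2HG_LPS. It was the only one of the 34 genes called in D2HG_LPS against Veh_LPS, where 0.955% of all genes were called lower, with a log2 fold change of -0.31 ± 0.07 (edgeR adjusted p = 0.0462). That call was lost in 12 of 18 alternatives, with adjusted p from 3.14e-04 to 0.201, among them each that left out a library of either LPS group. Ifngr1 had a log2 fold change of 0.21 ± 0.08 under the ester.

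Of 8 transcription factors 7 rose with LPS. Irf1 (log2 fold change 4.03 ± 0.09), Stat2 (3.47 ± 0.10) and Irf7, the amplifier of the interferon response (5.79 ± 0.18), were among them. Irf7 stood at 1407, 1360 and 1179 CPM in Veh_LPS and at 1067, 1076 and 1076 CPM in D2HG_LPS, with no overlap, a log2 fold change of -0.29 ± 0.14 (edgeR adjusted p = 0.339). Irf5, which drives inflammatory cytokine genes, stood at 473, 494 and 437 CPM in Veh_LPS and at 579, 556 and 573 CPM in D2HG_LPS, a log2 fold change of 0.28 ± 0.07 (edgeR adjusted p = 0.0735). It had the highest ester value of these lists.

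Upstream, LPS raised 5 and lowered 3 of 8 genes of the TLR4 route, shares to be read against the 35.0% and 38.9% of all genes called higher and lower. Cd14, the LPS co-receptor, had a log2 fold change of 2.16 ± 0.09 and the kinase gene Ikbke 2.22 ± 0.07. Tlr4 itself was called lower at -0.44 ± 0.18 (edgeR adjusted p = 0.045), a call kept in 7 of 18 alternatives, with values of 195, 127 and 118 CPM in Veh_N and 95.1, 91.6 and 137 CPM in Veh_LPS that overlap. Under the ester Ikbke had a log2 fold change of -0.19 ± 0.07, Tlr4 of -0.45 ± 0.19 and Ly96 of -0.53 ± 0.23, none called. These 3 of the 8 genes lay wholly below in D2HG_LPS, against 12.4% of all genes tested, and the other 5 overlapped. Of the carriers of nucleic acid sensing, Tlr3 (4.26 ± 0.18) and Cgas (2.23 ± 0.14) rose with LPS and Mavs, the adaptor of Ifih1 and Ddx58, fell by 1.40 ± 0.10 on the log2 scale. Under the ester Tlr3 had -0.44 ± 0.15 and Mavs 0.20 ± 0.10. All 6 feedback and Isg15-pathway partners rose with LPS, from 1.31 ± 0.08 for the phosphatase gene Ptpn6 and 2.36 ± 0.09 for Uba7, which activates Isg15, to 6.43 ± 0.17 for Socs3 and 7.31 ± 0.32 for Socs1. The ester values of Ptpn6 (-0.11 ± 0.08) and Uba7 (-0.12 ± 0.08) were near 0 on the log2 scale.

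Many members varied together between libraries of a group. In Veh_N replicate 3 was the lowest of 3 libraries for 35 of 43 members, with a median deviation of -0.30 from the group mean of log2 CPM, where the median over all genes was -0.02. Replicate 3 of Veh_LPS was the highest for 16 members and the lowest for 22, and this split followed transcript length: its median deviation was -0.10 for the 17 members under 2000 nt and 0.18 for the 8 of 4000 nt or more. Over all genes tested the same library stood at -0.12 and 0.11 in these length classes, and in Veh_N replicate 1 stood at -0.13 and 0.12 and replicate 3 at 0.12 and -0.13. In the ester comparison the median log2 fold change was -0.17 for members under 2000 nt and -0.23 for those of 4000 nt or more, against 0.08 and -0.07 over all genes in the same classes. The 8 members of 4000 nt or more were the sensors and helicases Ifih1, Ddx60, Eif2ak2, Adar and Znfx1, with Herc6 and Dtx3l of the Isg15 system and Helz2. Role and length therefore overlap in part. What part length has in the members' values, or in those of the sensors and helicases, was not tested. Without replicate 3 of Veh_LPS, 28 members lay wholly below (17.6% of all genes) and 41 log2 fold changes were negative, and without replicate 3 of Veh_N the LPS median was 4.4.

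**Figure D5:**
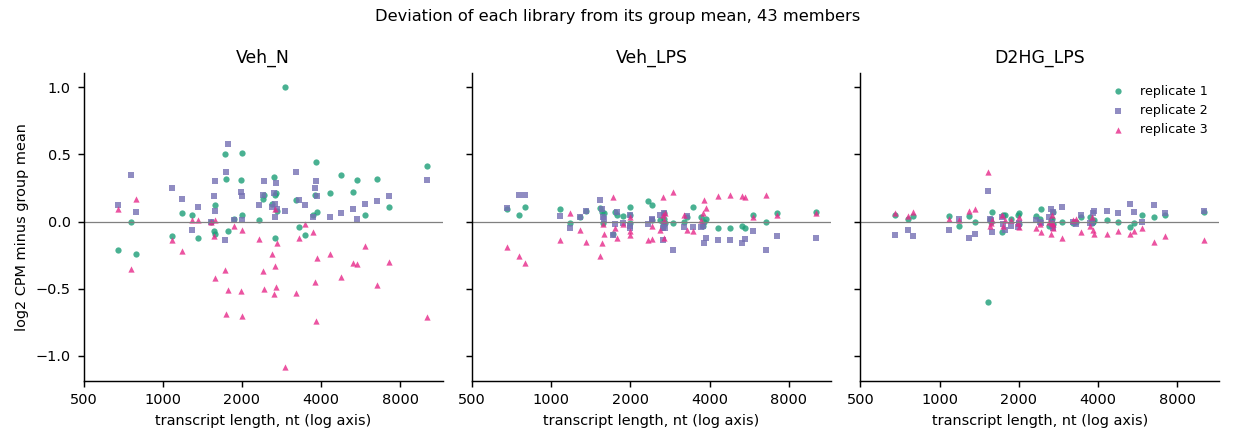
Deviation of each library from its group mean in log2 CPM (prior count 3) for the 43 members, against transcript length on a log axis, in 3 panels for Veh_N, Veh_LPS and D2HG_LPS, with replicates 1, 2 and 3 as circles, squares and triangles. Replicate 3 of Veh_N lies mostly below 0, and replicate 3 of Veh_LPS goes from below 0 for short transcripts to above 0 for long ones.

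The macrophage markers Adgre1, Cd68, Csf1r, Itgam, Lyz2, Mertk, Fcgr1 and Cd14 summed to 13267 to 15727 CPM in Veh_N, 12144 to 12648 in Veh_LPS and 12215 to 12950 in D2HG_LPS. Lyz2 was the largest part of this sum, with a mean of 8542 CPM in Veh_N. With LPS 4 of the 8 were called higher (Fcgr1, Cd14, Mertk and Adgre1), where 35.0% of all genes tested were. The 3 called lower were Csf1r (log2 fold change -1.42 ± 0.07), Lyz2 (-0.68 ± 0.10) and Itgam (-0.23 ± 0.08), where 38.9% of all genes were. The 8 neutrophil and precursor markers summed to 32.4 to 40 CPM in Veh_N, 75.4 to 93.2 in Veh_LPS and 68.7 to 84.5 in D2HG_LPS. Means were at most 0.177 CPM for Ly6g and 0.409 for Elane in any group. Means in Veh_N and Veh_LPS were 13.7 and 34.6 CPM for S100a9, 6.09 and 17.8 for S100a8 and 6.76 and 19.7 for Ngp. Of the 6 tested, 5 were called higher with LPS, where 35.0% of all genes tested were, and 1 was not called. The 7 dendritic cell markers summed to at most 2.90 CPM in Veh_N and 10.6 in an LPS library, the 7 lymphoid markers to at most 1.88, the 6 stromal and endothelial markers to at most 3.76 and the 4 erythroid markers to at most 0.0987. The neutrophil, dendritic and stromal sums were higher with LPS, as the members were, and their part in the members' values was not tested. The dendritic list did not rise as a whole. Of its 3 markers tested, Xcr1 and Clec9a were called higher with LPS and Cd209a lower (log2 fold change -3.61 ± 0.71). Of the stromal and endothelial list only Cdh5 was tested, and it was called higher, at a mean of 2.33 CPM in Veh_LPS. In bulk RNA, fewer responding cells and less RNA per cell cannot be told apart.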

How the data were processed

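RNA of BMDMs was made into strand-specific mRNA libraries, per the labels' protocols. The deposited table holds raw counts per RefSeq transcript, made by the authors. The submitters' processing notes name STAR 2.5.2b, DESeq2 and the builds mm9 and mm10, with no roles. The build and strand setting behind the counts are unknown here, and overlapping genes are named as uncertain.

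Of 35745 transcripts 35440 were named from RefSeq's gene table and 188 from GENCODE; 117 stayed unnamed (0.676% to 2.37% of counts per library). For each gene the transcript with the highest total was kept. Counts were filtered with filterByExpr, scaled by TMM and tested with edgeR 4.0.16 (glmQLFit with robust=TRUE, glmQLFTest, two-sided) in R 4.3.3 on the 9 libraries together, with a term for group alone; p-values were adjusted by Benjamini-Hochberg over 11622 genes, with 0.05 as threshold. The common biological coefficient of variation was 0.105. SEs were taken as the log2 fold change over the square root of F, and intervals from the t distribution. The fit was tested on simulated data, in which the changes put in were larger than that of any member under the ester. That run therefore does not cover changes as small as those of the members. DESeq2 1.42.0 and limma 3.58.1 (voom) served as alternatives, beside other scalings, no filter, summed transcripts, 2 groups only, a replicate block and each library left out. No library pair of a group was a duplicate: the chi-square of their counts per degree of freedom was 2.78 to 23.7.

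The members, the other gene lists and the tests were chosen with earlier results of these data known. In Veh_LPS over Veh_N and in D2HG_LPS over Veh_LPS, the 2 members of smallest p in each role are named with their values in every library. Others are named as part of their role. For D2HG_LPS over Veh_N this rule was not used, and only a few members are named, by log2 fold change. Transcript lengths came from GENCODE vM21. Protein sequences were not used here, and pathway genes that were only counted are given without values.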

Additional observations from a re-analysis of the deposited data

How the results depend on the processing

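The rise of all 43 members in Veh_LPS over Veh_N and in D2HG_LPS over Veh_N held in each of the 18 alternatives run. Their median log2 fold change over Veh_N moved to 4.14 and 4.05 with upper-quartile scaling and to 3.80 and 3.74 with library totals alone (Veh_LPS, then D2HG_LPS). In D2HG_LPS over Veh_LPS the members called lower were 1 with DESeq2 size factors, 5 with the DESeq2 test, 2 with limma-voom, 7 with the 2 groups alone and 0 to 6 with a library left out; 0 were called higher in any. The median moved to -0.19 with DESeq2 size factors and with the DESeq2 test and to -0.09 with library totals, and members wholly below fell to 13 with library totals. These 2 directional counts, negative values and wholly below, were rerun by choice made after seeing the data. Negative log2 fold changes numbered 32 to 41 of 43 over all settings.

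Over all genes, calls in that comparison were 245, against 522 with DESeq2, 450 with the 2 groups alone and 64 to 501 with a library left out, a shift of over 1.5 times for each of the 9 libraries. Of the calls 54.7% were higher, 40.8% with DESeq2 size factors, 74.4% with library totals, 34.3% with the DESeq2 test and 43.8% with the 2 groups alone. With the replicate block 93 genes and 0 members were called; same-numbered libraries had correlations of deviations from -0.46 to 0.19, so the numbers were not taken as pairs. Named genes whose ester value changed sign were all near 0: Mx2 0.01, Lgals9 0.00 and Ifnb1 0.04 with library totals, Rsad2 -0.01 with DESeq2 size factors and the DESeq2 test, and, with a library left out, Isg15 (-0.05 to 0.18), Eif2ak2 (-0.16 to 0.01) and Ifnb1 (-0.16 to 0.08). Of 845 values of 47 named genes in that comparison, 791 kept direction and side of the threshold, 32 passed it, 12 (all Tyk2) lost it and 10 changed sign. The cause of these shifts was not tested. Apol9a and Ifnb1 had under 50 counts in each LPS library, which limits the precision of their values.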
